A study of Homo sapiens with 4 samples.

Results

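G2/M cells are cells that have copied their DNA and are preparing for division or passing through it, and here they were taken from 4 single-cell RNA libraries of LNCaP, a human prostate cancer line, and of lines derived from it. A cell was kept when its barcode had at least 1500 detected genes, at least 5000 UMIs (unique molecular identifiers, each standing for 1 captured transcript) and under 20% of its UMIs from mitochondrially encoded genes. Each of the 15452 cells kept received a score, the summed UMIs of TOP2A, MKI67, CENPF, CCNB1, CDC20, PLK1, UBE2C, HMMR, TPX2 and CKS2 per 10000 UMIs of that cell. The 10% of the pooled cells with the highest score, 1546 of 15452, were the G2/M cells. There were 220 among 2019 LNCaP cells, 335 among 4565 LNCaP-ENZ48 cells, 528 among 4629 RES-A cells and 463 among 4239 RES-B cells, the order that all lists of values follow.

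The study followed LNCaP cells into resistance to enzalutamide (ENZ), an antiandrogen used against prostate cancer. The LNCaP library held parental cells given the solvent DMSO (0.1%) for 48 h, and LNCaP-ENZ48 held parental cells given 10 µM ENZ for 48 h. RES-A and RES-B are ENZ-resistant lines derived from LNCaP by long exposure to drugs of this class and were kept in 10 µM ENZ, renewed at every splitting and feeding. All 4 groups thus derive from 1 cell line and stand for 1 culture each. Living cells were sorted before droplet capture, and every group is 1 library, so no difference below has a replicate check and no test between groups was run.

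A cell enters mitosis when cyclin B activates the kinase CDK1, with the kinases PLK1 and Aurora A driving the switch. Microtubules then form the spindle, kinetochores attach the chromosomes to it, and the anaphase-promoting complex (APC/C) with its activator CDC20 ends mitosis by marking cyclin B and securin for destruction. Transcripts of many of these proteins build up in G2, through the MuvB complex with B-MYB and FOXM1 at a promoter element called CHR and through the factor NF-Y at CCAAT elements.

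Promoters of 6 score genes are shown because these letters recur in them. The letters searched for the CHR were TTTGAA, which reads TTCAAA on the other strand. A second form, TTCGAA, was also taken. The letters CCAAT read ATTGG on the other strand. All are in capitals in the 120 bases directly before the RefSeq transcription start (GRCh38.p14, 5′ to 3′ along the gene). The 6 genes shown are kinases and regulators of mitotic entry and exit (PLK1, CCNB1, CDC20, CKS2), the proliferation marker MKI67 and the spindle protein HMMR.
PLK1 (chr16:23678769-23678888, + strand): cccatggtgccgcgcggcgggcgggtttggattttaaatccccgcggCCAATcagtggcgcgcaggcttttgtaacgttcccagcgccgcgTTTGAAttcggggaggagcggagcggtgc
CDC20 (chr1:43358861-43358980, + strand): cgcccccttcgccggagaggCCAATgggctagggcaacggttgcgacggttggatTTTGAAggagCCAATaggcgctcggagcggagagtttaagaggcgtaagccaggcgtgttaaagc
CKS2 (chr9:89311075-89311194, + strand): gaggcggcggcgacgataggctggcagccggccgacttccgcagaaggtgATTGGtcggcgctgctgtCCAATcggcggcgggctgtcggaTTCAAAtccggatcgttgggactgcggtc
HMMR (chr5:163460512-163460631, + strand): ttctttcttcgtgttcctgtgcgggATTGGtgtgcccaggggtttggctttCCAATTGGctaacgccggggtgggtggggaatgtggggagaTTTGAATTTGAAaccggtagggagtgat
MKI67 (chr10:128126424-128126543, - strand): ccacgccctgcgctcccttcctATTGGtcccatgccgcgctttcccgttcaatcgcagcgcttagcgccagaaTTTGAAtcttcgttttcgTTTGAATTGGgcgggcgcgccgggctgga
CCNB1 (chr5:69167030-69167149, + strand): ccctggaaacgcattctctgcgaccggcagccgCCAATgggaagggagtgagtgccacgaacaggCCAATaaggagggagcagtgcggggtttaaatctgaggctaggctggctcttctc
In PLK1 the CHR letters began at position -29 and CCAAT at position -73 from the start, and in CKS2 the CHR letters stood at -29 with CCAAT letters at -52 and -70. HMMR held the CHR letters at -28 and -22, directly after each other, and its CCAAT and ATTGG letters at -69 and -66 share bases. In MKI67 the CHR letters at -29 share bases with the CCAAT letters at -24, while CCNB1 held CCAAT letters at -87 and -55 and no CHR letters.

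Both motifs were counted on both strands in the window from 250 bases before to 50 bases after each start, in which 8 of the 10 score genes had an entry. CHR letters stood in 7 of the 8 (87.5%) and CCAAT letters in 8 of 8. Of 64 promoters found for the 78 score, mitotic kinase, kinetochore and spindle genes, 45 (70.3%) held CHR letters, 47 (73.4%) held CCAAT letters and 37 (57.8%) held both. Of 27305 promoters of all genes, 4539 (16.6%) held CHR letters, 9747 (35.7%) held CCAAT letters and 1797 (6.58%) held both. The DNA replication genes, which serve the phase before G2, had CHR letters in 2 of 27 promoters (7.41%) and CCAAT letters in 19 (70.4%). A match of letters describes the window and is not evidence of binding.

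G2/M cells made up 10.9% of LNCaP cells (95% binomial interval 9.57 to 12.3), 7.34% of LNCaP-ENZ48 cells (6.60 to 8.13), 11.4% of RES-A cells (10.5 to 12.4) and 10.9% of RES-B cells (10.0 to 11.9). The share after 48 h of ENZ was the lowest, and its interval did not overlap those of the other libraries, whose intervals overlapped one another. With every cell thinned to 5000 UMIs before scoring, the shares were 10.8%, 7.23%, 11.6% and 11.0%, in the same places. All intervals, which were exact (Clopper-Pearson for shares), cover counting error only, not differences between cultures.

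The cut fell at a score of 25.3, between a G2/M cell at 25.31 and another cell at 25.23, and no gap marked it. Within 10% of the cut lay 125 G2/M cells above it and 135 other cells below it, so the G2/M cells are the top of a range and not a separate type. Median scores of the G2/M cells were 52.3, 50.9, 44.6 and 46.0 score UMIs per 10000, while the medians of the other cells were 0.993, 0.779, 1.18 and 1.19. Of the 15452 cells, 3754 held no UMI of any score gene. The middle 50% of scores ran from 38.3 to 68.0 in LNCaP, from 36.4 to 69.4 in LNCaP-ENZ48, from 34.0 to 55.8 in RES-A and from 33.2 to 62.8 in RES-B, so G2/M cells of the resistant lines lay closer to the cut. The G2/M cells held 72.1%, 69.5%, 65.1% and 67.2% of all score UMIs of their library.

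**Figure D1:**
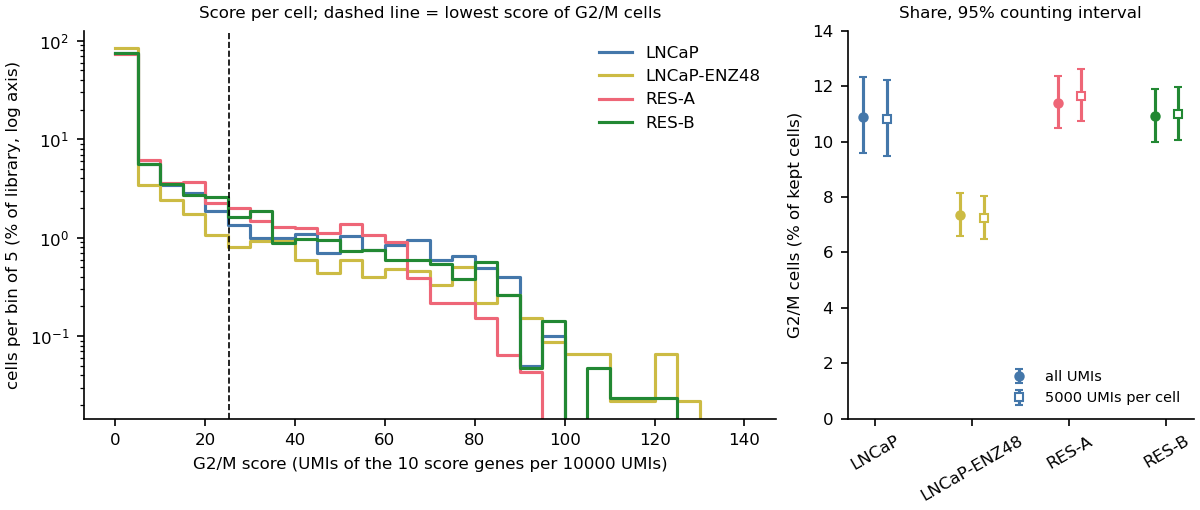
Left, percent of the cells of each library per score bin (log axis) against the score in UMIs per 10000 UMIs, with a dashed line at the cut. Right, G2/M cells in percent of kept cells, with all UMIs (filled) and at 5000 UMIs per cell (open), with exact 95% intervals. Scores run on without a gap at the cut of 25.3, and the LNCaP-ENZ48 share of 7.34% sits below the shares of 10.9% to 11.4% in the other libraries.

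Depth and cell identity were checked beside these values. The kept cells held 55696198, 68158371, 58657527 and 57709230 UMIs, of which the G2/M cells held 6986857, 5625525, 7402614 and 7153674. G2/M cells carried 1.11 to 1.19 times the median UMIs of the other cells of their library, and their median mitochondrial share was lower, at 8.6% against 9.83% in LNCaP and 11.0% against 12.4% in RES-B. At 5000 UMIs per cell, G2/M cells showed a median of 1867 to 1978 genes and other cells 1687 to 1835. Libraries shared 2 to 10 barcodes in pairs, none of them a G2/M cell. Luminal epithelial markers were present in all G2/M cells pooled by library, with a summed level of 1682, 1486, 1638 and 2052 CPM (UMIs per 1000000 UMIs of the cells summed) against 1542, 1509, 1720 and 2038 CPM in the other cells, and 0 of the 9 measured differed by 1.5-fold. Sums of fibroblast, immune and endothelial markers were at most 7.16 CPM, and PTPRC, CD3E, CDH5, PDGFRB and COL1A2 had 0 UMIs in G2/M cells of every library. COL1A1, a fibroblast collagen, had 42, 25, 14 and 16 UMIs.

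The score genes define the cells, so their levels are a description. CCNB1, the cyclin that activates CDK1, was at 696, 723, 585 and 578 CPM in G2/M cells and 28.4, 25.9, 41.7 and 32.5 CPM in other cells. PLK1, the kinase that drives entry into mitosis, was at 199, 162, 158 and 155 CPM in G2/M cells and 4.68, 2.67, 6.01 and 3.94 CPM in other cells. CDC20, which activates the APC/C, stood at 410.2, 390.4, 301 and 324 CPM in G2/M cells and 10.6, 7.28, 13.6 and 10.2 CPM in other cells. Each of these regulators was thus far higher in the G2/M cells of every library. CENPF, a kinetochore and nuclear matrix protein of G2, had the largest level in each library, at 1195, 1108, 999 and 1431 CPM, and CKS2, a small CDK-binding protein, was at 901, 1091, 564 and 684 CPM, against 74.1, 41.5, 71.6 and 107 CPM for CENPF and 68.6, 64.2, 66.1 and 72.9 CPM for CKS2 in other cells.

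TOP2A, the topoisomerase that untangles replicated chromosomes, was at 489.8, 472, 469 and 510.2 CPM in G2/M cells and MKI67, the surface coat of mitotic chromosomes, at 274, 231, 215 and 298 CPM. UBE2C, the ubiquitin-conjugating enzyme of the APC/C, was at 423, 447, 400.0 and 397 CPM, HMMR at 539, 507, 578 and 435 CPM and TPX2, the spindle protein that activates Aurora A, at 323, 290.3, 305 and 302 CPM. CENPF supplied 21.9%, 20.4%, 21.8% and 28.0% of the score UMIs of G2/M cells and CKS2 16.5%, 20.1%, 12.3% and 13.4%. CCNB1, CDC20 and PLK1 together supplied 23.9%, 23.5%, 22.8% and 20.7%, a larger part than in the other cells, where they supplied 14.4%, 16.8%, 17.3% and 13.2%. On GRCh38 (GENCODE 44), PLK1 lies at chr16:23677656-23690367 and CCNB1 at chr5:69167135-69178245, both on the + strand, and TOP2A at chr17:40388525-40417896 on the - strand, bounds that cover all their annotated transcripts.

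At an equal 5000 UMIs per cell, a CCNB1 UMI was found in 92.3, 91.9, 90.5 and 90.7% of G2/M cells and in 11.1, 9.36, 14.1 and 12.2% of other cells. For PLK1 the shares were 52.7, 51.3, 50.6 and 44.9% and 1.5, 0.922, 2.19 and 1.85%, and without thinning 90.9, 79.4, 79.5 and 72.6% and 8.0, 3.24, 5.83 and 4.21%. Free RNA gives some UMIs to cells that do not express a gene, and the shares in other cells include it as well as cells just below the cut. CDK1, which is not a score gene, was found in 56.4, 60.6, 67.2 and 60% of G2/M cells and, at 5000 UMIs, in 10.1, 8.42, 44.4 and 18.2% of other cells, with RES-A highest in both.

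**Figure D2:**
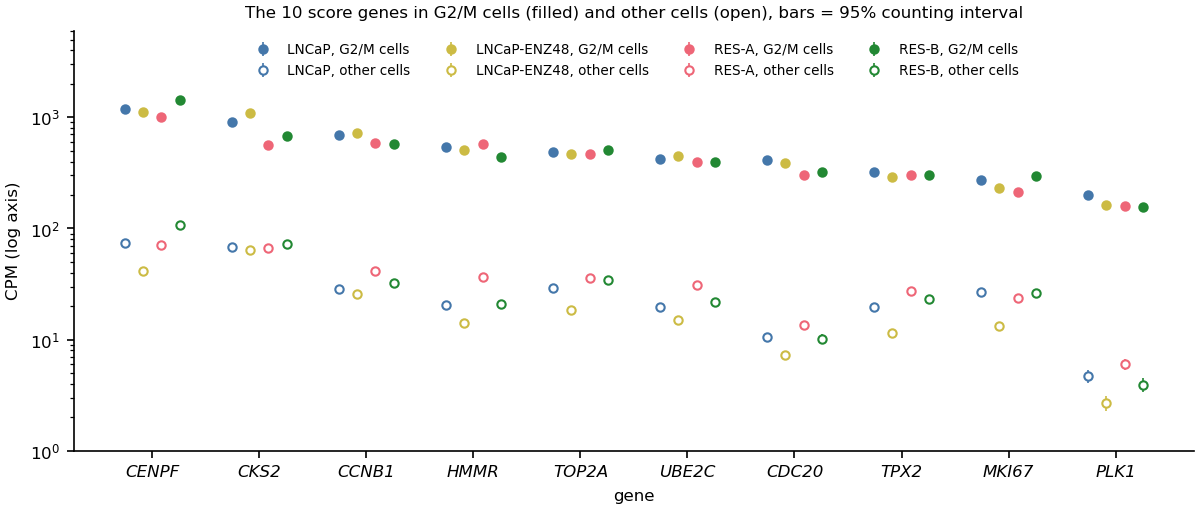
Level of each score gene (CPM, log axis) in G2/M cells (filled) and other cells (open) of each library, with 95% counting intervals. CENPF is the highest in G2/M cells of all 4 libraries, and PLK1 is the lowest there, at 155 to 199 CPM.

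To describe what else marks these cells, UMIs were summed over the G2/M cells and over the other cells of each library. A gene with at least 10 CPM in either sum was called higher or lower when the CPM differed by at least 1.5-fold and the exact 95% counting interval of the ratio lay on that side of no difference. In LNCaP 15.6% of 8012 genes were called higher in G2/M cells and 3.07% lower. The shares were 14.7% and 2.81% of 7750 genes in LNCaP-ENZ48, 9.18% and 3.34% of 7744 in RES-A, and 10.9% and 3.59% of 8080 in RES-B. Every gene of a cell can move with the 10 that chose it, so these counts describe the cells and test nothing. Across all genes the median log2 ratio was 0.16, 0.13, 0.073 and 0.091, and with trimmed-mean (TMM) scaling it was -0.066, -0.11, -0.044 and -0.011. Of the called genes 83.6%, 83.9%, 73.3% and 75.3% were higher, or 51.4%, 50.3%, 57.8% and 61.1% with TMM, so the counts of lower genes depend on the scaling. The 4 libraries shared 472 genes called higher and 38 called lower.

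Mitotic kinases and cyclins were higher throughout: all 17, 17, 16 and 16 that passed the 10 CPM limit, of 17 on the list, were called higher, with median log2 ratios of 3.56, 3.98, 3.2 and 3.37. AURKA, the Aurora A kinase of the centrosome, was at 195, 173, 159 and 168 CPM in G2/M cells and 5.28, 3.85, 9.76 and 7.40 CPM in other cells. BUB1, a kinase of the spindle checkpoint, was at 88.7, 90.5, 57.0 and 72.5 CPM in G2/M cells, with log2 ratios of 4.52, 5.07, 3.51 and 3.91, and the checkpoint kinase TTK had ratios of 4.33, 4.87, 3.76 and 4.24. The smallest mean ratios of the list were those of WEE1 and PKMYT1, which hold CDK1 inactive, and MELK, a kinase abundant in dividing cells, with 2.61, 2.33, 1.78 and 1.73 for WEE1, 1.48, 1.95, 1.53 and 1.57 for PKMYT1 and 2.38, 2.66, 2.15 and 2.25 for MELK. CDK1 itself stood at 338, 366, 534 and 364 CPM in G2/M cells and 39.5, 30.4, 177 and 64.9 CPM in other cells, so its ratio in RES-A, 1.59, was below the 2.49 to 3.59 of the other libraries, beside the highest level in other cells.

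Transcription factors listed for G2/M were also higher where they were measured. Of 7 listed, 4, 3, 3 and 3 passed the limit and all of these were called higher, with FOXM1, MYBL2 and LIN9 passing in every library. FOXM1 was at 73.7, 61.3, 65.0 and 80.9 CPM in G2/M cells and 13.7, 8.28, 14.3 and 16.9 CPM in other cells, MYBL2, which encodes B-MYB, had log2 ratios of 1.29, 2.19, 1.80 and 1.63, and LIN9, a subunit of MuvB, ratios of 1.89, 2.02, 1.43 and 1.90.

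All 23 kinetochore and spindle checkpoint genes and all 28 spindle and cytokinesis genes passed the limit and were called higher in every library. Medians were 2.50, 3.08, 2.69 and 2.46 for the kinetochore list and 3.53, 4.0, 3.12 and 3.23 for the spindle list, and with TMM 1 of these calls was lost, in the RES-B spindle list. CENPE, a kinesin that moves chromosomes along the spindle, was at 397, 293, 209 and 287 CPM in G2/M cells and 19.1, 9.55, 15 and 17.3 CPM in other cells. CENPA, the histone variant that marks centromeres, was at 148, 133, 61.3 and 69.8 CPM in G2/M cells against 5.54, 3.15, 3.16 and 3.34 CPM, a lower level in both resistant lines than in LNCaP and LNCaP-ENZ48. SGO2, a protector of centromeric cohesion, had log2 ratios of 4.40, 4.72, 3.19 and 3.61, and the smallest ratios were those of CENPM (1.31, 1.78, 1.71 and 1.96), CENPN (1.19, 1.76, 1.62 and 1.86) and SKA2 (1.69, 1.82, 1.5 and 1.69).

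Among spindle genes, the kinesin of cytokinesis KIF20A was at 76.3, 55.5, 53.5 and 59.8 CPM in G2/M cells and 2.14, 1.25, 2.50 and 2.16 CPM in other cells, and the spindle pole proteins ASPM and FAM83D were at 237, 187, 197 and 275 CPM and 162, 103, 125 and 159 CPM in G2/M cells. Their log2 ratios were 5.16, 5.47, 4.42 and 4.79 for KIF20A, 4.81, 5.26, 4.31 and 4.59 for ASPM and 5.25, 5.44, 4.20 and 4.51 for FAM83D. The lowest ratios of the list belonged to ARL6IP1 (2.39, 2.3, 1.83 and 2.03), the microtubule polymerase CKAP5 (2.22, 2.21, 1.64 and 1.87) and the chromokinesin KIF22 (1.64, 1.98, 0.97 and 0.67). Even these were called higher in all 4 libraries.

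Tubulins, the units of microtubules, were called higher for 6 of 7, 7 of 7, 7 of 9 and 6 of 8 genes that passed, with TUBA1A called lower in RES-B. TUBB4B was at 1206, 1098, 1006 and 1279 CPM in G2/M cells and 143, 132, 228 and 280.5 CPM in other cells, and TUBA1B at 1839, 2039.6, 2781 and 2441 CPM in G2/M cells and 369.8, 336, 949 and 510.4 CPM in other cells. TUBA1C had log2 ratios of 2.35, 2.29, 1.78 and 2.11. Tubulin genes are near-copies of each other, so their separate levels are uncertain. Of 17 genes of chromosome condensation and cohesion, 16, 16, 15 and 16 were called higher, or 13 in LNCaP with TMM. The condensin subunit NCAPG had log2 ratios of 3.90, 4.43, 2.98 and 3.19 and the chromatin protein HMGB2 was at 664, 585, 482 and 459 CPM in G2/M cells and 65.5, 40.0, 58.8 and 49.5 CPM in other cells. STAG2, a cohesin subunit, was not called in any library, with ratios of 0.043, -0.089, -0.098 and 0.066, and the cohesin subunit SMC3 was not called in RES-A.

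Genes of the APC/C and anaphase were split. Of 18, 17, 17 and 18 that passed, 9, 7, 7 and 7 were called higher and 0 lower, with medians of 0.57, 0.53, 0.27 and 0.47. Regulators accounted for the largest ratios. CDKN3, a CDK phosphatase, had log2 ratios of 3.37, 3.68, 2.73 and 2.90, PTTG1, the securin that holds separase in check, was at 859, 926, 619 and 758 CPM in G2/M cells and 116, 111, 115 and 95 CPM in other cells, and UBE2S, which extends ubiquitin chains for the APC/C, was at 1717, 1503, 1311 and 1104 CPM in G2/M cells and 297, 238, 304 and 176 CPM in other cells. Core subunits were divided, with CDC27 called higher in all 4 libraries and CDC26 in none, with log2 ratios of -0.00080, -0.079, 0.020 and -0.091 for CDC26.

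**Figure D3:**
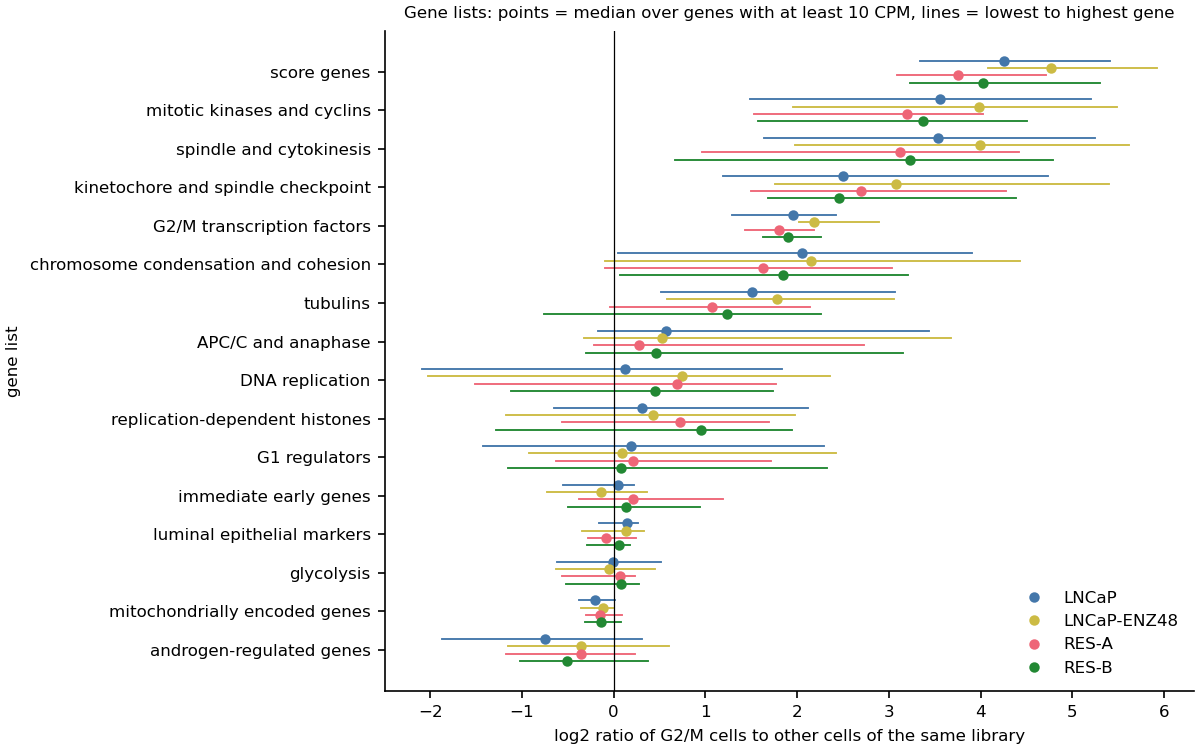
Log2 ratio of CPM in G2/M cells to other cells of the same library by gene list and library, where points are medians over the genes that passed the limit and lines run from the lowest to the highest gene. Every kinetochore and spindle gene lies above 0 in all 4 libraries, while androgen-regulated genes have medians from -0.74 to -0.35.

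Genes of DNA replication, which act before G2, were called in both directions. Of 25, 21, 29 and 27 that passed, 8, 12, 16 and 12 were called higher and 6, 2, 2 and 4 lower. Medians were 0.12, 0.75, 0.69 and 0.45, and with TMM the LNCaP median changed sign to -0.11, with 7 called higher and 8 lower. GINS1 (a subunit of the replicative helicase), TK1 (thymidine kinase) and TYMS (thymidylate synthase) were called higher in all 4 libraries, TK1 at 105, 117, 255 and 145 CPM in G2/M cells and 30.4, 25.7, 87.8 and 47.1 CPM in other cells. TYMS had log2 ratios of 1.34, 1.88, 1.77 and 1.74 and GINS1 of 1.83, 2.36, 1.61 and 1.35. UNG, which removes uracil from DNA, was called lower in all 4, at 4.29, 3.38, 9.59 and 8.11 CPM in G2/M cells and 18.3, 13.7, 23.9 and 17.6 CPM in other cells. MCM3, a helicase subunit loaded in G1, was called lower in LNCaP and LNCaP-ENZ48 only, at 8.59, 8.53, 40.8 and 28.5 CPM in G2/M cells and 18.9, 13.6, 34.3 and 33.5 CPM in other cells. Its LNCaP-ENZ48 ratio was 0.22 when the top 10% of each library was taken in place of the pooled cells. SLBP, which binds histone mRNA, was called lower in LNCaP with ratios of -0.59, -0.31, -0.15 and 0.098.

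Most replication-dependent histone mRNAs lack a poly(A) tail, so this 3′ assay sees them in part. HIST1H4C, a core histone H4 gene, was still at 1738, 1238, 1398 and 1814 CPM in G2/M cells and 812, 455, 559.8 and 624 CPM in other cells, and the linker histone gene HIST1H1B had log2 ratios of 1.22, 1.97, 1.70 and 1.94, both called higher in all 4 libraries. HIST1H2AC lay in the other direction, with -0.65, -1.17, -0.56 and -1.28, called lower except in RES-A. Over the list 3 of 8, 2 of 7, 4 of 6 and 5 of 6 measured genes were called higher and 1, 2, 0 and 1 lower.

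Among 17 regulators of G1, the inhibitors of cyclin D kinases CDKN2C and CDKN2D and the CDK inhibitor CDKN1B were called higher in G2/M cells of every library. CDKN2D was at 100.3, 105, 41.5 and 53.8 CPM in G2/M cells and 20.4, 19.6, 12.6 and 10.7 CPM in other cells, CDKN2C at 27.6, 32.2, 32.7 and 32.9 CPM in G2/M cells with log2 ratios of 1.87, 1.89, 1.66 and 1.51, and CDKN1B had ratios of 1.36, 1.06, 0.86 and 1.04. CDKN1A, the p21 inhibitor that rises after DNA damage, was called lower except in RES-A, at 24.2, 24.4, 50.5 and 9.37 CPM in G2/M cells and 64.8, 46.1, 56.4 and 20.8 CPM in other cells. Cyclin D1, CCND1, was not called, with -0.42, -0.23, -0.42 and -0.31. Counts over the list were 3, 4, 5 and 5 called higher and 2, 1, 1 and 2 lower of 12, 12, 14 and 14 measured, and the list medians of LNCaP, LNCaP-ENZ48 and RES-B were above 0 with total counts and below 0 with TMM.

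Immediate early genes, which answer stress and handling, gave 1 call or none in each library: ATF3 lower in LNCaP-ENZ48 (-0.72) and KLF6 higher in RES-A and RES-B. Of 16, 16, 16 and 15 glycolysis genes 1, 1, 0 and 0 were called, ALDOC being the gene called lower. Mitochondrially encoded genes gave 0 calls of 13 in every library and medians of -0.20, -0.11, -0.15 and -0.14, or 1 call lower in LNCaP and in LNCaP-ENZ48 with TMM. Of the 11 genes, other than score genes, of a gene list the study used on these same libraries for persisting cells, 9 were called higher in every library. The study credits that list to an earlier publication and named it for its link to a cluster of cells in these libraries. It is not independent evidence here, since it holds CCNB2, PTTG1, CENPE and other mitotic genes.

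Androgen-regulated genes were called lower in the G2/M cells more often than higher. Of 14, 12, 7 and 11 that passed, 8, 4, 3 and 5 were called lower and 0, 1, 0 and 0 higher, and 10, 7, 3 and 6 were lower with TMM. Their summed level was 1445 CPM in G2/M cells against 2553 CPM in other cells in LNCaP, 1049 against 1409 in LNCaP-ENZ48, 481 against 641 in RES-A and 501 against 708 in RES-B. KLK3, the gene of prostate-specific antigen, was at 382 against 783 CPM in LNCaP and 44.1 against 98.2 CPM in LNCaP-ENZ48, both called lower, and at 35.2 against 29.7 CPM in RES-B, not called. In RES-A it had 0 UMIs in G2/M cells. The kallikreins KLK2 and KLK3 are near-copies, so their separate levels are uncertain.

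TMPRSS2, a surface protease driven by androgen, was at 32.1, 18.7, 5.67 and 13.1 CPM in G2/M cells and 118, 26.2, 7.71 and 20.1 CPM in other cells and was called lower in LNCaP and RES-B. STEAP2, a metalloreductase of prostate cells, was called lower in all 4 libraries, at 156, 154, 44.4 and 53.3 CPM in G2/M cells and 286, 287, 99.9 and 108 CPM in other cells. KLK4 was called lower in LNCaP, LNCaP-ENZ48 and RES-B, with log2 ratios of -1.43, -0.60 and -0.96. The single call upward was ACSL3, a fatty acid activating enzyme, in LNCaP-ENZ48 (0.60), which was lost with TMM. MYC was at 108, 93.5, 105 and 95.9 CPM in G2/M cells and 196, 117, 144 and 133 CPM in other cells and was called lower in LNCaP.

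**Figure D4:**
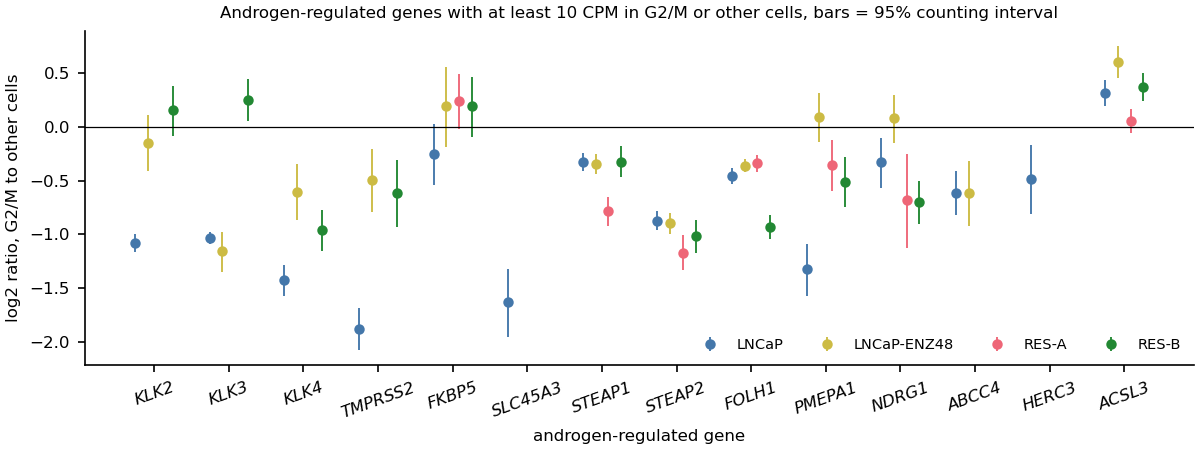
Log2 ratio of CPM in G2/M cells to other cells for 14 androgen-regulated genes, by library where the gene passed the limit, with 95% counting intervals. In LNCaP 8 of 14 are called lower in G2/M cells, and STEAP2 is called lower in all 4 libraries.

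Genes that distinguish the 4 libraries were called lower or not at all, with 5 of 11, 4 of 12, 2 of 10 and 5 of 9 measured lower. CAMK2N1, an inhibitor of calmodulin kinase, was lower in G2/M cells of every library, at 30.8, 61.3, 14 and 192 CPM in G2/M cells and 70.3, 235, 51.4 and 759 CPM in other cells. IGFBP5, which binds insulin-like growth factor, was at 168 against 319 CPM in RES-A and 46.0 against 124 CPM in RES-B.

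Outside all lists, the 8 genes with the highest ratio in their lowest library were named. DEPDC1, a cell cycle gene, was at 105, 79.8, 191 and 345 CPM in G2/M cells and 7.53, 2.37, 13.7 and 25.4 CPM in other cells. CDCA2, which brings a phosphatase to mitotic chromosomes, had log2 ratios of 4.26, 5.00, 3.74 and 4.12, CDCA3, an adaptor that removes WEE1, of 4.16, 4.44, 3.45 and 3.81, CEP55, a protein of the final cut between daughter cells, of 4.20, 4.69, 3.35 and 3.83, and HJURP, the chaperone of CENPA, of 3.46, 4.13, 3.23 and 3.69. PRR11, DEPDC1B and ARHGAP11A completed these 8 genes, with ratios from 3.14 to 4.25. They were chosen by these ratios, which are a description.

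The 8 genes lowest by the same rule included AIDA, a regulator of JNK signalling, at 67.4, 137, 153 and 243 CPM in G2/M cells and 166, 440.3, 357 and 714 CPM in other cells, and NEAT1, the long noncoding RNA of nuclear paraspeckles, at 1299.7, 1690.5, 666 and 663 CPM in G2/M cells and 3230.0, 3777, 1118 and 1727 CPM in other cells. Others were TM7SF2 of sterol synthesis (-1.08, -1.07, -1.34 and -1.13), the retinal reductase RDH11 (-1.17, -0.90, -0.99 and -1.08), the matrix protein SPON2 (-1.32, -1.21, -0.95 and -1.12), the membrane peptidase MME (-1.28, -0.97, -0.86 and -0.90), BLOC1S6 of lysosome-related organelles (-1.04, -1.03, -1.02 and -1.17) and TP53INP1, a stress protein (-0.89, -0.81, -1.59 and -0.85). The NEAT1 levels differed by library in both sets of cells, with LNCaP and LNCaP-ENZ48 above the resistant lines.

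To see how G2/M cells differ among themselves, those of each library were divided at their median score, which gave 110 and 110, 168 and 167, 264 and 264, and 232 and 231 higher-scoring and lower-scoring cells. This division again uses the score, so its values are a description. Per library, the log2 ratio of higher-scoring to lower-scoring cells in summed CPM was 0.89, 0.85, 0.57 and 0.91 for mitotic kinases and cyclins, 0.83, 0.82, 0.65 and 0.88 for the spindle list and 0.66, 0.62, 0.49 and 0.63 for the kinetochore list. It was -0.14, -0.17, -0.44 and -0.36 for DNA replication and -0.44, -0.83, -1.70 and -0.70 for histones. Mitotic lists were thus higher and both S phase lists lower in the higher-scoring cells of all 4 libraries, with the smallest mitotic and the largest histone difference in RES-A.

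KIF20A had ratios of 1.60, 1.11, 1.22 and 1.56 and AURKA of 1.49, 1.37, 1.37 and 1.40. Cyclin A2, CCNA2, which acts from S phase on, had 1.03, 1.05, 1.02 and 1.17. CENPE had 0.85, 0.90, 0.73 and 1.01, so mitotic genes lay on both sides of CCNA2. The KIF20A and AURKA intervals overlapped those of CCNA2 except in LNCaP. HIST1H4C had -0.36, -0.76, -1.64 and -0.60 and HIST1H1B -1.02, -1.96, -2.52 and -1.34, with the lowest value in RES-A for both. In RES-A, HIST1H4C was at 678 CPM in higher-scoring and 2118 CPM in lower-scoring cells, and the histone list summed to 832 and 2708 CPM, a log2 ratio of -1.70 [-1.76, -1.64]. PCNA, the sliding clamp of DNA polymerase, had -0.39, -0.25, -0.54 and -0.58. Median UMIs per cell were 34674 and 26472 in LNCaP, 16502 and 15767 in LNCaP-ENZ48, 13607 and 13034 in RES-A, and 15785 and 13087 in RES-B, so depth moved with the score and its part was not tested.

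**Figure D5:**
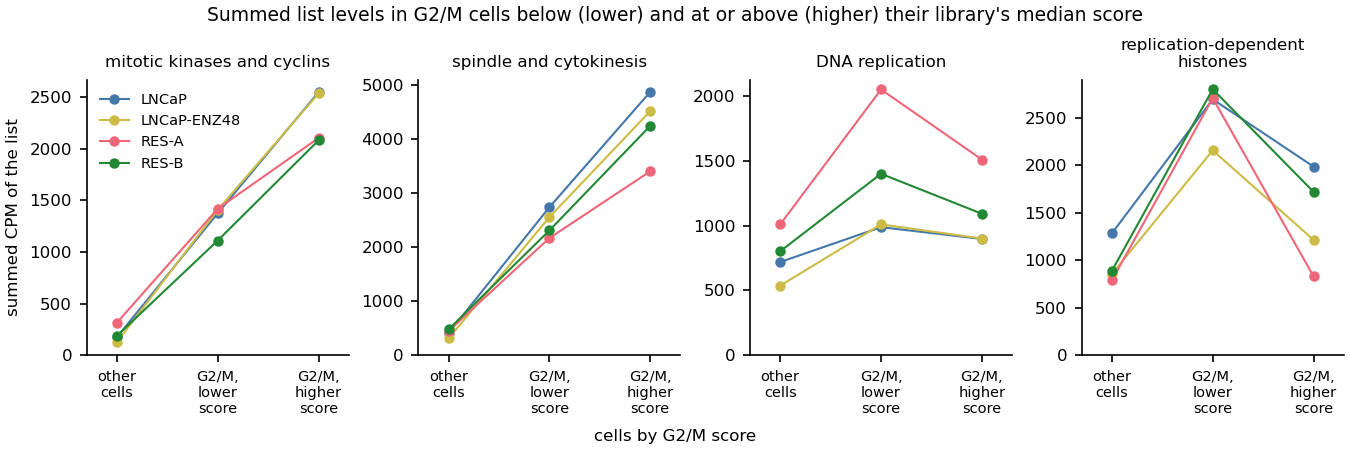
Summed CPM of 4 gene lists in other cells, lower-scoring and higher-scoring G2/M cells, with 1 line per library. Both mitotic lists are highest in the higher-scoring cells of every library, and the histone sum of RES-A goes from 2708 CPM in lower-scoring to 832 CPM in higher-scoring cells.

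A larger share of RES-A G2/M cells had a high DNA replication score than in the other libraries. Each cell received a second score from the DNA replication genes. Its medians were 8.56, 8.79, 15.5 and 10.6 in G2/M cells, against 3.71, 3.12, 5.04 and 4.02 in other cells. At 5000 UMIs per cell they were 8, 8, 16 and 10, against 4, 4, 6 and 4. The median was thus higher in the G2/M cells of every library. The 10% of pooled cells with the highest second score were marked, which describes only the top of its range. In LNCaP 9 G2/M cells (4.09%, interval 1.89 to 7.62) were among them against 8.34% of other cells, in LNCaP-ENZ48 14 (4.18%, 2.3 to 6.91) against 4.96%, in RES-A 159 (30.1%, 26.2 to 34.2) against 14.8%, and in RES-B 57 (12.3%, 9.46 to 15.7) against 9.03%. The RES-A interval overlapped none of the others. By the division at the median score, these cells were 0% of higher-scoring and 8.18% of lower-scoring G2/M cells in LNCaP, 1.19% and 7.19% in LNCaP-ENZ48, 16.7% and 43.6% in RES-A, and 5.60% and 19.0% in RES-B. With only the top 5% of the G2/M score, 16.8% of RES-A G2/M cells were marked against 16.5% of its other cells, so the excess over the other cells of RES-A was not seen under that cut. Of the cells with the most UMIs, among which doublets are likeliest, 64 of 213 in RES-A were G2/M cells, against 10 of 44, 26 of 185 and 29 of 193 in LNCaP, LNCaP-ENZ48 and RES-B. Without these cells the RES-A share was 32.4%.

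G2/M cells were then compared between libraries, with the 3 comparisons against LNCaP sharing its 220 G2/M cells. After 48 h of ENZ, 1.36% of 7967 genes were called higher in G2/M cells than in LNCaP G2/M cells and 5.16% lower. With TMM the higher share of called genes went from 20.8% to 41.5%. Of the 10 score genes 0, and of 17 mitotic kinases and cyclins 0, were called. The G2/M cells of all libraries were cut at the same score. Close levels of the score genes, and of genes that move with them, thus follow in part from the rule, here and in the comparisons below. Of 23 kinetochore genes SKA1, a subunit of the complex that tracks microtubule ends, was called lower (33.5 to 19.2 CPM), and of 28 spindle genes FAM83D was called lower (162 to 103 CPM), a call lost with TMM. Medians of the mitotic, kinetochore and spindle lists were -0.14, -0.16 and -0.18, beside -0.073 for all genes. In the other cells the medians were -0.37, -0.56 and -0.47, but over fewer genes. There 4, 14 and 10 genes of these lists passed the limit, against 17, 23 and 28 in G2/M cells. DNA replication genes had a median of 0.0040 and 0 calls of 20 in G2/M cells, and -0.44 with 7 called lower of 23 in other cells.

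Androgen-regulated genes differed in LNCaP-ENZ48 G2/M cells, with 7 of 14 called lower, 1 higher and a median of -0.62. The other cells differed more, with 10 of 14 lower, 1 higher and a median of -0.90. The values that follow are for G2/M cells. KLK3 went from 382 to 44.1 CPM, a log2 ratio of -3.11 [-3.31, -2.93], and KLK2 from 163 to 23.8 CPM (-2.77 [-3.04, -2.52]). TMPRSS2 went from 32.1 to 18.7 CPM. The gene called higher was FOLH1, which encodes prostate-specific membrane antigen. Over all genes, the largest ratios upward were those of DDC, the decarboxylase that makes dopamine (16.0 to 82.1 CPM, 2.36 [2.06, 2.67]), the noncoding RNA SNHG25 (72.3 to 221 CPM) and the sodium pump subunit ATP1B1 (451 to 1123 CPM).

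RES-A G2/M cells differed more from those of LNCaP, with 12.5% of 8226 genes called higher and 18.8% lower. Of the mitotic kinases and cyclins 1 was called higher and 5 lower of 17, of kinetochore genes 9 lower of 23 (6 with TMM) and of spindle genes 12 lower of 28 (11 with TMM), with medians of -0.40, -0.55 and -0.53 beside -0.065 for all genes. CDK1 was the gene called higher, from 338 to 534 CPM (0.66 [0.59, 0.73]). WEE1, which restrains CDK1, went from 61.1 to 22.7 CPM (-1.43 [-1.70, -1.17]) and cyclin B2, CCNB2, from 317 to 205 CPM. CENPA went from 148 to 61.3 CPM (-1.27 [-1.43, -1.11]). Of the score genes 1 was called, CKS2, which was lower (-0.68 [-0.73, -0.62]). Without the G2/M cells marked by the replication score, the CDK1 and CKS2 calls were lost, with 0 of 10 score genes called and 0 higher and 2 lower of 17 mitotic kinases and cyclins. The kinetochore list then still had 7 lower of 23 (median -0.52) and the spindle list 12 lower of 28 (-0.52). The lower median score of RES-A G2/M cells (44.6 against 52.3) moves with these values, and its part was not tested. In other cells of RES-A against LNCaP, medians of the mitotic, kinetochore and spindle lists were -0.030, -0.21 and 0.097. Only 4, 15 and 10 genes passed the limit there, with 1 higher and 1 lower in each list.

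DNA replication genes went the other way in RES-A G2/M cells, with 21 of 27 called higher than in LNCaP G2/M cells, 0 lower and a median of 1.28. The helicase subunit MCM6 went from 3.29 to 23.1 CPM and MCM3 from 8.59 to 40.8 CPM (2.25 [1.84, 2.67]). PCNA went from 54.7 to 191 CPM (1.81 [1.64, 1.97]), and DTL, which directs the destruction of licensing factors, had a ratio of 2.24 [1.55, 2.99]. TYMS was not called, at 0.18. The other cells showed the list at 11 higher of 28 and a median of 0.44. Without the G2/M cells marked by the replication score, which left 211, 321, 369 and 406 cells, 15 of 26 were higher and the median was 0.78. Histones lay lower, with 0 higher and 4 lower of 7 and a median of -0.63, or 7 lower of 7 and -1.33 without the marked cells. In the other cells histones also had 0 higher and 4 lower of 7, with a median of -1.11.

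G2/M cells of RES-A lacked the kallikrein transcripts KLK2 and KLK3, which were also nearly absent from its other cells. Without thinning, a KLK3 UMI was found in 0.049% and a KLK2 UMI in 0.12% of the other cells. In the G2/M cells KLK3 had 0 UMIs against 2668 in LNCaP G2/M cells, at least 942-fold lower with the floor of 3 UMIs per sum, and KLK2 0, at least 402-fold lower. Over the androgen-regulated list 10 of 14 were called lower, with a median of -2.09. In the other cells 11 of 14 were lower, with a median of -2.01. H2AFJ, a histone H2A variant, had 0 UMIs against 2784, at least 983-fold lower. IGFBP5 was detected in RES-A G2/M cells with 1246 UMIs against 0, at least 392-fold higher, and NR2F1, an orphan nuclear receptor, was at 59.8 CPM against 1 UMI in LNCaP. Of tubulins, TUBA1A had a ratio of 5.07 [4.46, 5.75]. Glycolysis genes had 5 called higher and 0 lower of 16, and in the other cells 4 higher and 0 lower of 16. Among G1 regulators CDKN1A was called higher (1.06 [0.80, 1.33]) and CDKN1B lower (-1.13 [-1.36, -0.91]). Genes that distinguish the libraries had 6 higher and 7 lower of 15 in G2/M cells, and 6 and 6 of 15 in other cells.

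RES-B G2/M cells had 14.3% of 8340 genes called higher than in LNCaP and 11.6% lower. Mitotic kinases and cyclins had 6 lower of 17 (median -0.43), kinetochore genes 1 higher and 6 lower of 23 (-0.20) and spindle genes 5 lower of 28 (-0.23), beside 0.051 for all genes. CENPA again lay lower, from 148 to 69.8 CPM (-1.09 [-1.24, -0.93]), as did WEE1 (-0.88 [-1.11, -0.65]) and CCNB2 (-0.60 [-0.70, -0.51]), and 0 of the score genes were called. The kinetochore gene called higher was SKA3, and 0 were higher without the cells marked by the replication score. In other cells of RES-B against LNCaP, medians of the mitotic, kinetochore and spindle lists were 0.0014, -0.075 and 0.069. Only 5, 16 and 11 genes passed the limit there, with 2, 0 and 2 higher and 1, 2 and 1 lower. DNA replication genes had 9 higher and 2 lower of 23 (median 0.50), or 4 and 2 of 21 without the cells marked by the replication score, with PCNA at 0.80 [0.61, 0.98] and MCM3 at 1.73 [1.31, 2.17]. G1 regulators had 2 higher and 8 lower, among them CDKN1A (-1.37 [-1.80, -0.95]) and CDKN2D (-0.90 [-1.08, -0.72]). The other cells had 2 G1 regulators higher and 6 lower of 13.

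Glycolysis genes had 9 called higher and 1 lower of 16 in RES-B G2/M cells, with a median of 0.60. Its other cells had 5 higher and 1 lower of 16, with a median of 0.49. Androgen-regulated genes had 10 lower of 14 and a median of -1.38, but KLK3 stayed detectable at 35.2 CPM. In the other cells 11 of 14 were lower and 1 higher, with a median of -1.43. VAV3, a signalling protein, was at 74.8 against 0.716 CPM (6.71 [5.48, 8.34]), and PLA2G2A, a secreted phospholipase, was also among the highest ratios. PRAC1, a small prostate protein, had 0 UMIs against 4977 (at least 1699-fold lower), H2AFJ 0 (at least 950-fold) and the transcription factor gene ETV1 0 against 476 (at least 162-fold). Genes that distinguish the libraries had 7 higher and 7 lower of 15 in G2/M cells, and 7 and 6 of 15 in other cells.

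Between the resistant lines, 16.4% of 8119 genes were called higher in RES-B G2/M cells than in RES-A and 7.6% lower. With median-of-ratios scaling the share of called genes that were higher went from 68.4% to 54.3%. Mitotic lists were close, with 1 higher and 1 lower of 16 kinases and cyclins, 2 and 0 of 23 kinetochore genes, and 3 and 1 of 28 spindle genes. DNA replication genes had 0 higher and 13 lower of 27 and a median of -0.58 (-0.43 without the cells marked by the replication score, -0.42 in the other cells). PCNA had -1.01 [-1.15, -0.88], MCM7 -1.01 [-1.20, -0.83] and MCM5 -1.82 [-2.34, -1.32], and CDKN1A was lower too (-2.43 [-2.83, -2.05]). Androgen-regulated genes had 5 higher and 1 lower of 11. The most different genes were VAV3, HOXA10 and PLP2 upward and PRAC1 (0 UMIs against 2646, at least 852-fold), CBLN2 (0 against 446, at least 144-fold) and GNAI1 (-4.86 [-5.54, -4.25]) downward.

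Differences between libraries were then set side by side in G2/M cells and in other cells. For 2901, 3115, 3194 and 3115 genes with at least 50 CPM in 1 or more of the 4 sums and at least 10 UMIs in each, the library ratio in G2/M cells lay within 1.5-fold of that in other cells for 97.9% of genes in LNCaP-ENZ48, for 94.7% in RES-A and for 96.2% in RES-B, each set against LNCaP, and for 98.5% when RES-B was set against RES-A. The exceptions, given as the log2 ratio in G2/M cells minus that in other cells, included PMEPA1, an androgen-induced inhibitor of TGF-beta signalling, with 1.41 [1.09, 1.74], and TMPRSS2, with 1.38 [1.04, 1.73], after 48 h of ENZ. PMEPA1 went from 21.8 to 31.5 CPM in G2/M cells and from 54.4 to 29.6 CPM in other cells, and TMPRSS2 from 32.1 to 18.7 and from 118 to 26.2 CPM. S100P, a calcium-binding protein, had -1.17 [-1.46, -0.87] in that comparison and 1.74 [1.38, 2.11] in RES-A against LNCaP.

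In RES-A against LNCaP, CDK1 had a difference of -1.51 [-1.61, -1.41], the potassium channel gene KCNN2 2.45 [1.71, 3.18] and the matrix protein gene CCDC80 -2.68 [-3.65, -1.71]. ATP2B1, a calcium pump, had -1.73 [-1.90, -1.55] and SSFA2 -2.05 [-2.39, -1.72]. CDK1 was at 39.5 CPM in other cells of LNCaP and 177 CPM in other cells of RES-A, so the lines were closer in their G2/M cells. In RES-B against LNCaP the differences reached 3.50 [2.25, 4.75] for the metallothionein MT1G, whose ratio of G2/M to other cells in LNCaP changed sign at 5000 UMIs per cell, and -1.66 [-1.76, -1.56] for the transcription cofactor LMO4, and in RES-B against RES-A 1.22 [1.09, 1.35] for EIF1B. The score genes differed less between LNCaP-ENZ48 and LNCaP in G2/M cells than in other cells, as for TOP2A at -0.053 and -0.67, but the same score chose both sets.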

How the data were processed

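Single-cell RNA was measured in 4 LNCaP-derived libraries, 1 per group, and titles gave the groups. The authors deposited UMI counts by gene and barcode, made from 3′ droplet libraries (10x Chromium v3) with Cell Ranger 3.0.2 and a GRCh38 reference, per the matrix headers and the submitters' processing notes, with no normalization. From these counts, 2019, 4565, 4629 and 4239 of 2358, 4812, 5156 and 4907 barcodes passed the filter (at least 1500 genes, at least 5000 UMIs, under 20% mitochondrial UMIs). Cells were scored and the top 10% of the pooled cells taken as G2/M cells. The members and gene lists were chosen with earlier results of these data known.

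UMIs were summed over cells and given as CPM. Ratios have exact conditional binomial 95% intervals and shares exact Clopper-Pearson intervals, which cover counting error only. With 1 library per group no test was run. Calls used genes with at least 10 CPM and a 1.5-fold limit, folds against a sum of 0 used 3 UMIs in its place, and the scripts were tested on simulated data. The genes named are the score genes, library identity genes, KLK2, KLK3, KLK4, TMPRSS2, MYC, the 3 highest and 3 lowest of each list by mean log2 ratio, the 8 highest and 8 lowest outside all lists, and the 3 highest and 3 lowest of each comparison between libraries. Some genes of the lists were named after their values were seen (CDK1, CCNA2, CDC27, MCM5, MCM6, MCM7, PCNA, DTL, SKA1, SKA3, KLF6, TUBA1A and the markers of other cell types), and some genes the rule names are not reported here.

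Alternatives were TMM factors, median-of-ratios size factors, limits of 1 and 50 CPM, thinning to 5000 UMIs, the study's limits per library, the top 5%, the top 10% of each library, scores without TOP2A or CENPF, and a mean of log-normalised values. Doublets were not removed and no caller was run, and 1 alternative left out the cells with the most UMIs (0.8% of barcodes per 1000 barcodes). The comparison with no limit on CPM, the one without cells of high replication score and all settings of that score were added after seeing the data. Counts of near-identical copies (tubulins, histones, KLK2 and KLK3) are uncertain. Gene positions came from GENCODE 44 on GRCh38, where 33113 of 33538 IDs were found, and promoters from RefSeq (GRCh38.p14). Tools were Python 3.11.15, numpy 2.4.6, scipy 1.17.1, pandas 2.3.3, matplotlib 3.10.9, R 4.3.3 and edgeR 4.0.16, the last for TMM factors only.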

Additional observations from a re-analysis of the deposited data

Results flagged for a closer look

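In 7 genes the ratio of G2/M cells to other cells was called in opposite directions in 2 or more libraries, and none of these differences was tested, since each library stands for 1 culture. S100P, a calcium-binding protein, had a log2 ratio of -1.44 in LNCaP-ENZ48, at 21.0 against 57.0 CPM, and 1.47 in RES-A, at 13.1 against 4.74 CPM. SSFA2 was higher in G2/M cells of LNCaP (0.97) and LNCaP-ENZ48 (0.68) and lower in those of RES-A (-1.08) and RES-B (-0.71). Its level in G2/M cells varied little, from 21.8 to 30.3 CPM, while other cells held 11.1 and 13.7 CPM in LNCaP and LNCaP-ENZ48 and 54.2 and 49.6 CPM in RES-A and RES-B. The calcium pump gene ATP2B1 had 0.79 in LNCaP, at 64.3 against 37.1 CPM, and -0.94 in RES-A, at 147 against 281 CPM. EIF1B, a homologue of a translation initiation factor, had 0.69 in LNCaP, at 114 against 70.4 CPM, and -0.87 in RES-A, at 254 against 464 CPM. For ATP2B1 and EIF1B the RES-A level was higher than the LNCaP level in both sets of cells. The remaining 3 genes were chosen after their values were seen. TMEM116 was called higher in LNCaP (0.70) and LNCaP-ENZ48 (0.77) and lower in RES-A (-0.71) and RES-B (-0.61), EPHA6 had 0.69 in LNCaP-ENZ48 and -0.63 in RES-A, and RIMS1 had 0.79 in LNCaP and -0.84 in RES-A.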

How the results depend on the processing

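The shares of G2/M cells kept their values within counting error when cells were thinned, under the study's limits, without the cells with the most UMIs, without TOP2A or CENPF in the score, and with a mean of log-normalised values. With the top 5%, LNCaP had the highest share, and the shares were 6.24%, 4.01%, 5.14% and 5.33%. Under that cut the LNCaP-ENZ48 interval (3.46 to 4.62) overlapped that of RES-A (4.52 to 5.82), but not those of LNCaP and RES-B. The share of G2/M cells with a high replication score was then 0%, 1.09%, 16.8% and 5.75%, and at 5000 UMIs per cell it was 36.4% in RES-A.

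Counts of called genes depend on scaling and on the CPM limit. With TMM, genes called higher and lower in G2/M cells numbered 685 and 648 in LNCaP and 662 and 655 in LNCaP-ENZ48, 406 were lower in RES-A, and G2/M cells of LNCaP-ENZ48 against LNCaP gave 189 and 266. With median-of-ratios factors the counts were 797 and 500 in LNCaP, 412 lower in LNCaP-ENZ48, 437 lower in RES-B, and 183 and 270 between LNCaP-ENZ48 and LNCaP, where thinning gave 172 higher. With a limit of 1 CPM, higher and lower numbered 1983 and 584 in LNCaP, 1767 and 513 in LNCaP-ENZ48, 1142 and 756 in RES-A, and 1387 and 724 in RES-B. Between G2/M cells they were 281 and 712 for LNCaP-ENZ48, 1799 and 2419 for RES-A and 1964 and 1622 for RES-B against LNCaP, and 2086 and 1156 for RES-B against RES-A. In the same order, 50 CPM gave 418 and 61, 371 and 61, 277 and 59, 319 and 74, 23 and 78, 397 and 416, 429 and 277, and 385 and 208. No limit gave 2075 and 601, 1837 and 523, 1205 and 791, 1441 and 756, 289 and 712, 1846 and 2439, 2004 and 1652, and 2118 and 1180. These limits change how many genes enter.

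Single genes reversed in 3 cases: MT1G in LNCaP at 5000 UMIs per cell (0.013 from -0.81), MCM3 in LNCaP-ENZ48 with the top 10% of each library (0.22 from -0.67) and CAMK2N1 between RES-A and LNCaP G2/M cells under the study's limits (0.24 from -1.13). The cause was not tested. With TMM 836 ratios of named genes moved by less than their counting interval and 386 by more. No paired analysis was possible because each group is 1 library.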
